A study of Homo sapiens with 12 samples.

Results

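GPNMB and 44 other genes of the lysosome, 45 of the 57820 genes counted, were described across 12 RNA libraries of T47D breast cancer cells. GPNMB was chosen because its RNA was already known to be high in some of these libraries, so its values are given as a description and carry no test. The other 44 genes were chosen by name, as lysosomal membrane proteins, enzymes, proton pump subunits and the transcription factors that act on them, to ask whether the rise of GPNMB belongs to a wider lysosomal programme.

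The libraries were made from T47D-MTVL cells, a line derived from hormone-responsive luminal breast cancer cells in which an MMTV promoter drives an integrated luciferase gene. The cells were kept in medium with charcoal-treated serum, and none of the cells had been given the progestin R5020. There were 6 groups of 2 libraries. Poly(A) RNA represents cells given a PADI2 siRNA (siPADI2) and cells given a control siRNA (siCtrl). It also represents cells whose labels name the R1810A form of RNA polymerase II (RNAP2) and cells whose labels name the wild-type form (WT). Both of these forms were HA-tagged and resistant to alpha-amanitin, a mushroom toxin to which endogenous RNAP2 is sensitive, and both groups had 24 h of expression followed by 12 h in 6 µg/ml of the toxin. Chromatin RNA, the RNA that stayed with the chromatin pellet after nuclei were washed with urea and detergent, was taken after siPADI2 and after siCtrl. PADI2 converts arginines of proteins into citrullines, and R1810A replaces an arginine in the tail of the largest RNAP2 subunit.

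Poly(A) libraries held 44318629 to 132764704 counts and chromatin libraries 2720080 to 7040541, so chromatin values were the less precise. All 8 luminal breast epithelial markers looked at lay above 1 CPM, the count scaled to library size by TMM, in every group, as the cell label says. PADI2 had 1.83 and 1.88 CPM in the siPADI2 poly(A) libraries, against 24.0 and 22.6 CPM in the siCtrl libraries. The libraries labelled R1810A likewise had little PADI2 RNA, at 3.13 and 2.35 CPM, against 48.9 and 50.7 CPM in the WT libraries, although their labels name no PADI2 siRNA. POLR2A, the gene of the largest RNAP2 subunit, had 361 and 363 CPM in the libraries labelled R1810A, against 514 and 528 CPM in the WT libraries. After siPADI2 it had 311 and 306 CPM in poly(A) RNA, against 489 and 401 CPM after siCtrl. Its log2 fold change was −0.53 in both. Whether libraries of 1 group are separate cultures is not stated, and the p-values cover only the variation among these libraries, possibly technical. In such bulk RNA, fewer cells of one kind and less RNA per cell cannot be told apart.

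Lysosomes are the acidic compartments in which cells break down proteins, sugars and lipids. A proton pump, the V-ATPase, keeps them acidic, soluble hydrolases do the cutting, and membrane proteins such as LAMP1 line them. Many of their genes are switched on together by the related transcription factors TFEB, TFE3 and MITF, which bind short E-box words in promoters. GPNMB is a glycoprotein of lysosomes, melanosomes and the cell surface that is abundant in melanocytes, macrophages and osteoclasts, and is known as a target of this transcription factor family.

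Promoters are shown first for 5 genes, because the words that TFEB, TFE3 and MITF bind differ between them. GPNMB and CTSC had the largest rises in poly(A) RNA, MCOLN1 and CTSA carry the same 8-base word, went in opposite directions after siPADI2 in poly(A) RNA and were both higher in the libraries labelled R1810A, and TPP1 carries the word found in GPNMB and was lower in both poly(A) experiments. The sequences are from RefSeq, build GRCh38.p14, 250 bases before to 50 bases after the start site, written 5′ to 3′ on the gene's strand, with the words TCACGTG and TCATGTG on either strand in capitals.
GPNMB: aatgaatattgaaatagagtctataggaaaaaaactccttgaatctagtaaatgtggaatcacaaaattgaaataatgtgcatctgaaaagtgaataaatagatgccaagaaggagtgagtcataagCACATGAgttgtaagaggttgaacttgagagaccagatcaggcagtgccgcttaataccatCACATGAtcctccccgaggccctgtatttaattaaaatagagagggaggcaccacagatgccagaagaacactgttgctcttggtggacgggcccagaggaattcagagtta
CTSC: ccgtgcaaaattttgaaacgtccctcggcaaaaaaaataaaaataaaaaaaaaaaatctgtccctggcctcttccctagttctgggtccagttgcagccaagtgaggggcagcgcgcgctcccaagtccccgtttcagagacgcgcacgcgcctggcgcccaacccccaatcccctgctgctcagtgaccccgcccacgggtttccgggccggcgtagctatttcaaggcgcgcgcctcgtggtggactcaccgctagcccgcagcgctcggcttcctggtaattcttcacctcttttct
MCOLN1: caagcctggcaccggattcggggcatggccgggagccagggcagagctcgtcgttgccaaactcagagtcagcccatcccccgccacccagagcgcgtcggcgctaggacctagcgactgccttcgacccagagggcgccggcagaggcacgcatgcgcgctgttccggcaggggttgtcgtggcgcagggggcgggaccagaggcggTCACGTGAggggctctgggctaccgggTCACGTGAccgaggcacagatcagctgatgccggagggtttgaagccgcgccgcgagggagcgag
CTSA: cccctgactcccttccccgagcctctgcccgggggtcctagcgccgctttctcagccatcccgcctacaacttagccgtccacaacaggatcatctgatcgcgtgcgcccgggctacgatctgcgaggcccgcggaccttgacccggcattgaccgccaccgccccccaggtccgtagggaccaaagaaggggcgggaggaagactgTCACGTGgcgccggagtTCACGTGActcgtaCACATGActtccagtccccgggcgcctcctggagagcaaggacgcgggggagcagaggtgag
TPP1: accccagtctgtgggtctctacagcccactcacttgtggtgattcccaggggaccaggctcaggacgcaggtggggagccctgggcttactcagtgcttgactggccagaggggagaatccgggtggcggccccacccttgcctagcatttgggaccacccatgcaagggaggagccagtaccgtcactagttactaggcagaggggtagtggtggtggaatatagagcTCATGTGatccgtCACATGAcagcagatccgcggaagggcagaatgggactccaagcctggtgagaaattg

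Promoters were matched for 32 of the 45 genes. GPNMB at chr7:23246525-23246824 (plus strand) holds no CACGTG, but holds TCATGTG on the reverse strand, read as CACATGA, in 2 places that begin 123 and 62 bases before the start site. CTSC at chr11:88337687-88337986 (minus strand) holds neither word. MCOLN1 at chr19:7522374-7522673 (plus strand) holds TCACGTGA at 42 and 15 bases before the start site. CTSA at chr20:45891085-45891384 (plus strand) holds TCACGTG at 43 bases, TCACGTGA at 26 bases and CACATGA at 12 bases before it. TPP1 at chr11:6619373-6619672 (minus strand) holds TCATGTG at 21 bases and CACATGA at 8 bases before it. The 4 words searched overlap, since TCACGTG contains CACGTG and TCACGTGA contains both.

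Among the 32 genes, 11 held CACGTG, which 8.77% of all 27305 genes with a promoter entry hold. TCACGTG was held by 10 of the 32, namely ARSB, ATP6V0D1, CLN3, CTSA, CTSD, CTSF, GAA, LAMP1, MCOLN1 and NEU1, and by 4.49% of all genes. TCACGTGA was held by 6 of the 32, and by 1.18% of all genes. TCATGTG was held by GPNMB, CD63, CTSA, PPT1, SCARB2 and TPP1, 6 of the 32, and by 3.59% of all genes. Of the 5 genes other than GPNMB that hold TCATGTG, all 5 were lower in poly(A) RNA after siPADI2, while 8 were higher and 11 lower of the 26 matched genes that do not hold it. Of those 5, in the libraries labelled R1810A, 1 was higher and 2 were lower, against 12 higher and 8 lower of the 26, and in chromatin RNA 1 of the 5 was lower. Of the 10 holders of TCACGTG, 2 were higher and 6 lower after siPADI2 in poly(A) RNA, against 6 higher and 10 lower of the 21 other matched genes without it. For the libraries labelled R1810A, 3 of the 10 were higher and 4 lower, and of the 21, 10 were higher and 6 lower. Over all genes tested, 28.8% were higher and 27.9% lower after siPADI2 in poly(A) RNA, 22.6% and 24.3% in the libraries labelled R1810A, and 12.2% and 20.1% after siPADI2 in chromatin RNA. These matches are descriptions of letters, not of binding.

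GPNMB, on the plus strand at chr7:23275586-23314727 (hg19), had by far the highest fold change of the list in both poly(A) experiments. Its level was 831 and 755 CPM in the siPADI2 libraries, against 96.2 and 96.0 CPM in the siCtrl libraries, which is 8.26-fold or a log2 fold change of 3.05 ± 0.09 (SE). It was 427 and 450 CPM in the libraries labelled R1810A, against 66.4 and 68.4 CPM in the WT libraries, which is 6.5-fold or a log2 fold change of 2.70. The libraries of each pair of groups did not overlap. In chromatin RNA it was 74.9 and 58.8 CPM after siPADI2, against 34.7 and 39.6 CPM after siCtrl, a log2 fold change of 0.85 that was 0.40 once a trend with GC content, described below, was removed. Behind these chromatin values lie 211 and 166 counts after siPADI2, against 214 and 269 counts after siCtrl in deeper libraries.

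GPNMB took another place among the lysosomal genes when levels were set per kilobase of exon. In poly(A) RNA it ranked 5 of the 45 in the siPADI2 libraries with a mean of 133 FPKM, where it overlapped with CD63 at rank 4, against rank 28 in the siCtrl libraries with 16.1 FPKM. It ranked 7 in the libraries labelled R1810A with 73.6 FPKM, against rank 30 in the WT libraries with 11.3 FPKM. The most abundant members per length in the siCtrl libraries were CTSD, PPT1 and PSAP, at 328, 307 and 302 FPKM, where the libraries of all 3 genes overlapped and their order was not resolved, and the least abundant was ATP6V0D2. In the siPADI2 libraries GPNMB made up 9.46% and 9.10% of the summed CPM of all 45 genes, against 0.961% and 0.963% in the siCtrl libraries. The summed CPM of the other 44 genes moved the other way, at 7958 and 7546 after siPADI2, against 9919 and 9867 after siCtrl. In the libraries labelled R1810A that sum was 7470 and 8042 CPM, against 7859 and 8187 CPM in the WT libraries, where the groups overlapped.

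**Figure D1:**
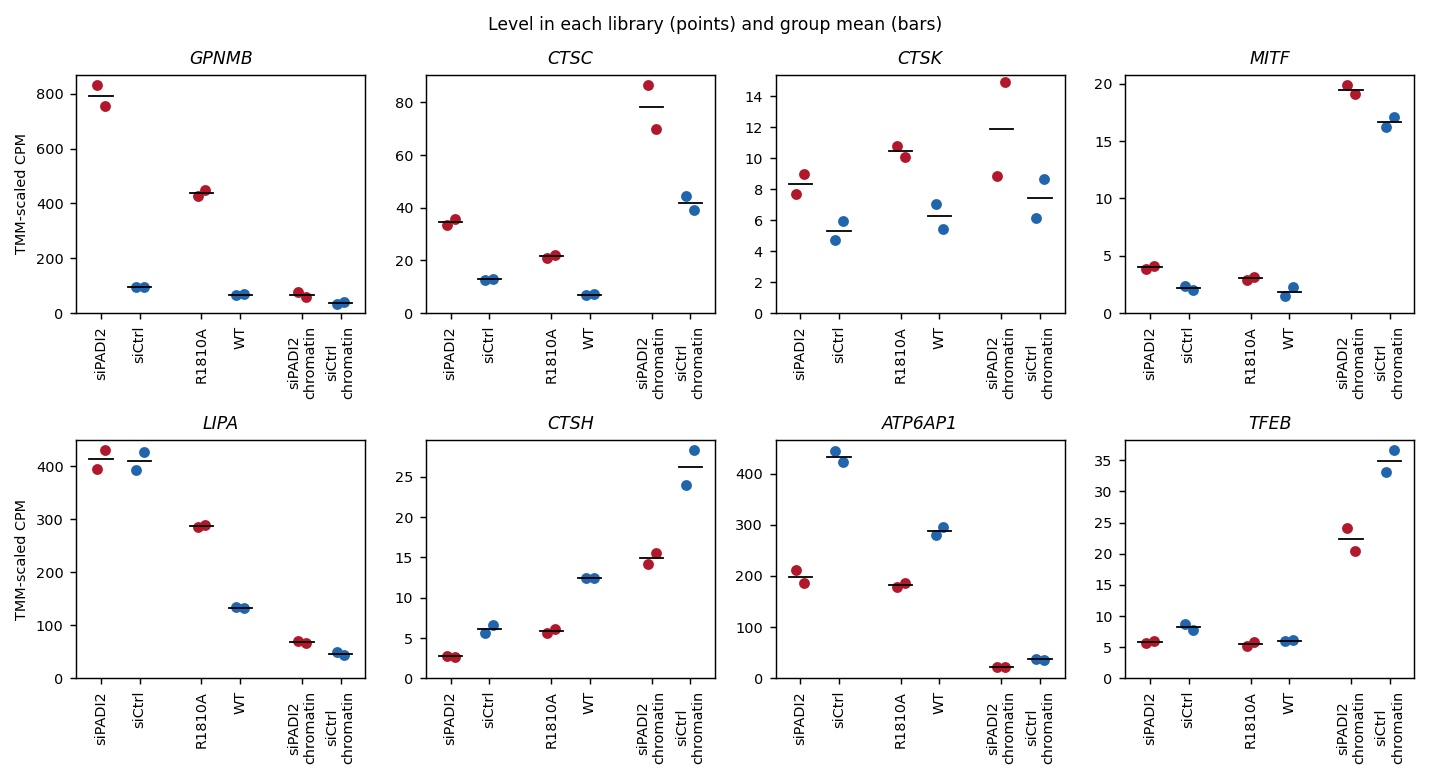
Level of 8 lysosomal genes in each library. The y axis is TMM-scaled CPM from 0, points are the 2 libraries of a group, bars are group means, and red marks siPADI2 and the libraries labelled R1810A, blue siCtrl and WT. GPNMB and CTSC are higher in red than in blue in every pair of groups, CTSH and ATP6AP1 lower in every pair, and LIPA is higher in the libraries labelled R1810A and not after siPADI2 in poly(A) RNA.

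More of the other 44 genes fell than rose after siPADI2 in poly(A) RNA. Of the 43 that passed the filter on low counts, 10 were higher (23.3%) and 23 lower (53.5%) at an adjusted p under 0.05 by edgeR's quasi-likelihood test, with Benjamini-Hochberg adjustment over all genes tested. Of all 18720 genes tested, 28.8% were higher and 27.9% lower. The median log2 fold change of the 43 was −0.29, beside 0.01 over all genes tested, and their range was −1.19 to 1.43. That median was −0.11 with total counts in place of TMM as the scale and −0.18 with a correction for GC content, and 6 genes were higher without the first siPADI2 library. The largest rise, of CTSC, was thus 2.69-fold, and 1 gene rose and 2 fell by more than 2-fold. With total counts, the median of all genes shifted to 0.19, the calls over all genes were 7398 higher and 3636 lower in place of 5395 and 5225, and 16 lysosomal genes were called higher and 17 were called lower.

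In the libraries labelled R1810A against the WT libraries, the 43 genes divided more evenly. There were 18 higher (41.9%) and 14 lower (32.6%), where 22.6% of all 19202 genes tested were higher and 24.3% lower. Their median log2 fold change was −0.07, beside −0.02 over all genes tested, and their range was −1.08 to 1.62. With total counts as the scale the calls over all genes were 5110 higher and 3901 lower in place of 4348 and 4662, and 9 lysosomal genes were lower. Without the first WT library 9 were higher.

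In chromatin RNA, 4 of the 44 genes were higher after siPADI2 (9.09%) and 13 lower (29.5%), where 12.2% of all 33879 genes tested were higher and 20.1% lower. Their median log2 fold change was −0.19, beside 0.03 over all genes tested. Calls there followed GC content, as set out below, and the lower count was 4 with a GC correction, 5 with DESeq2 and 7 with total counts as the scale. With total counts the median of all genes shifted to 0.14, and the calls over all genes were 4156 higher and 4891 lower in place of 4140 and 6822. Lower calls over all genes also dropped, to 3928 with the GC correction and 3252 with DESeq2. Leaving out 1 library at a time gave from 1 to 3 higher genes and from 6 to 12 lower ones, the fewest without the second siPADI2 library or the siCtrl library numbered 5.

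**Figure D2:**
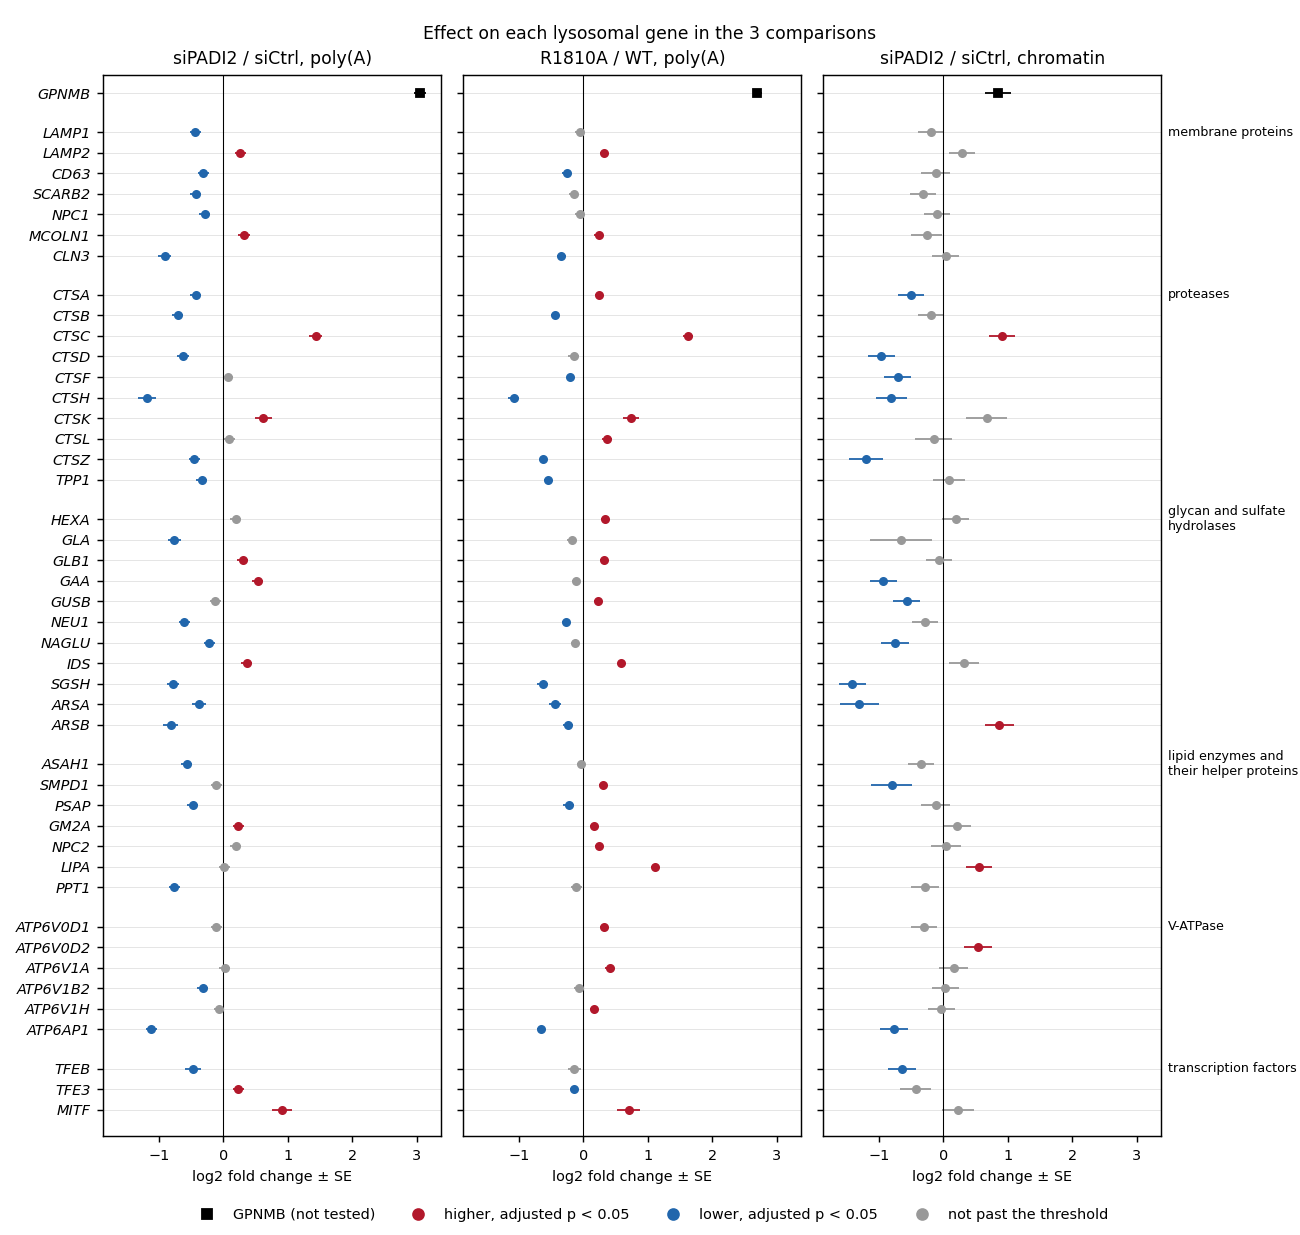
Log2 fold change with its SE for all 45 genes, ordered from top to bottom by role, after siPADI2 against siCtrl in poly(A) RNA, in the libraries labelled R1810A against WT, and after siPADI2 against siCtrl in chromatin RNA. GPNMB, the black square, lies at 3.05, 2.70 and 0.85, while the other genes lie on both sides of 0 in every role. ATP6V0D2 is shown for chromatin RNA only, since it did not pass the filter in poly(A) RNA.

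Among the 7 membrane proteins, 2 rose and 5 fell after siPADI2 in poly(A) RNA, where 28.8% of all genes rose and 27.9% fell. CLN3, a membrane protein mutated in a childhood neurodegenerative storage disease, had the largest fall, with 22.5 and 19.3 CPM in siPADI2 libraries, against 42.9 and 35.8 CPM in siCtrl libraries (log2 fold change −0.91 ± 0.10, adjusted p = 1.83e-09). Its exons share 36.1% of their length with other genes on the same strand, where reads were not counted, so its values are uncertain. The abundant LAMP1 had 538 and 504 CPM after siPADI2, against 717 and 700 CPM after siCtrl (log2 −0.44), and its partner LAMP2 went up, with 296 and 278 CPM after siPADI2, against 233 and 247 CPM after siCtrl (log2 0.26, adjusted p = 0.00819). MCOLN1, the calcium channel of the lysosomal membrane, was also higher, at 34.0 and 29.3 CPM after siPADI2, against 26.4 and 24.4 CPM after siCtrl (log2 0.32). The tetraspanin CD63, the receptor SCARB2 that carries glucocerebrosidase to lysosomes, and the cholesterol exporter NPC1 fell by log2 values of −0.31, −0.43 and −0.29.

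In the libraries labelled R1810A, LAMP2 and MCOLN1 were again higher than in the WT libraries (log2 0.32 and 0.24) and CD63 and CLN3 again lower (−0.26 and −0.34). LAMP1, SCARB2 and NPC1 did not pass the test there, with log2 fold changes of −0.06, −0.15 and −0.06. In chromatin RNA their log2 fold changes lay between −0.31 and 0.29, and 0 of the 7 passed by edgeR, by DESeq2 or at an unadjusted p under 0.05 with either tool. After the GC correction, CLN3 and MCOLN1 were higher there (log2 0.80 and 0.70, adjusted p = 0.00368 and 0.0279) and SCARB2 lower (−0.81, adjusted p = 0.00233) by edgeR.

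The proteases held the largest rise and the largest fall of the 43 genes in both poly(A) experiments. CTSC, a cathepsin that activates the serine proteases of immune cell granules, had 33.3 and 35.8 CPM after siPADI2, against 12.7 and 13.0 CPM after siCtrl (log2 1.43 ± 0.10, adjusted p = 1.82e-15). It had 20.8 and 22.2 CPM in the libraries labelled R1810A, against 6.86 and 7.16 CPM in the WT libraries (log2 1.62 ± 0.08, adjusted p = 4.26e-09). Its chromatin level was 86.6 and 69.8 CPM after siPADI2, against 44.3 and 39.0 CPM after siCtrl (log2 0.91, adjusted p = 0.000114), which was 0.35 with an adjusted p of 0.177 after the GC correction. CTSC was the only one of the 44 genes that was higher in all 3 comparisons, and its groups never overlapped. It remained a weakly expressed gene per length, at 3.03 FPKM after siPADI2, against 1.12 FPKM after siCtrl.

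CTSK, the collagen-degrading cathepsin of osteoclasts, also rose in both poly(A) experiments from low levels. It had 7.70 and 8.99 CPM after siPADI2, against 4.73 and 5.93 CPM after siCtrl (log2 0.62 ± 0.13, adjusted p = 8.09e-05), and 10.8 and 10.1 CPM in the libraries labelled R1810A, against 7.07 and 5.43 CPM in the WT libraries (log2 0.74 ± 0.13, adjusted p = 0.00153). The chromatin level was 8.87 and 14.9 CPM after siPADI2, against 6.16 and 8.69 CPM after siCtrl, and did not pass the test (adjusted p = 0.0961).

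CTSH, an aminopeptidase-type cathepsin, had the largest fall of the list in both poly(A) experiments. Its level was 2.75 and 2.67 CPM after siPADI2, against 5.61 and 6.67 CPM after siCtrl (log2 −1.19 ± 0.14, adjusted p = 1.61e-09). It was 5.65 and 6.11 CPM in the libraries labelled R1810A, against 12.5 and 12.4 CPM in the WT libraries (log2 −1.08 ± 0.09, adjusted p = 3.60e-07). Chromatin RNA had 14.2 and 15.6 CPM after siPADI2, against 24.0 and 28.3 CPM after siCtrl (log2 −0.81, adjusted p = 0.0044).

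The other proteases were called in both directions. CTSD, the main aspartic protease of the lysosome, had 676 and 597 CPM after siPADI2, against 1069 and 900 CPM after siCtrl (log2 −0.63, adjusted p = 5.23e-07), and did not pass the test in the libraries labelled R1810A (log2 −0.15). Its exons share 22.8% of their length with another gene, so its level is uncertain. CTSB fell in both poly(A) experiments (log2 −0.71 after siPADI2 and −0.44 in the libraries labelled R1810A), as did the tripeptidase TPP1 (−0.34 and −0.55). CTSL did not pass the test after siPADI2 (0.09) and was higher in the libraries labelled R1810A (0.37), while CTSF had 0.07 after siPADI2, which did not pass, and −0.20, which did. CTSA, which also protects neuraminidase and beta-galactosidase, was called in opposite directions: 423 and 386 CPM after siPADI2, against 562 and 531 CPM after siCtrl (log2 −0.43), and 309 and 318 CPM in the libraries labelled R1810A, against 257 and 273 CPM in the WT libraries (log2 0.24). CTSZ, a carboxypeptidase-type cathepsin, had 62.2 and 58.7 CPM in poly(A) RNA after siPADI2, against 82.8 and 82.7 CPM after siCtrl (log2 −0.45), and 80.3 and 86.4 CPM in the libraries labelled R1810A, against 127 and 130 CPM in the WT libraries (log2 −0.62). In chromatin RNA CTSZ had 12.4 and 7.44 CPM after siPADI2, against 21.7 and 24.0 CPM after siCtrl (log2 −1.20 ± 0.27, adjusted p = 9.03e-05), which was −0.41 with an adjusted p of 0.27 after the GC correction. CTSA, CTSD, CTSF and CTSH were lower there too, with log2 fold changes between −0.96 and −0.50, and all 4 lost the call with the GC correction (adjusted p between 0.114 and 0.975) and all but CTSD with DESeq2.

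The 11 hydrolases of glycans and sulfates were 3 higher and 6 lower after siPADI2 in poly(A) RNA, and the libraries labelled R1810A had 4 higher and 4 lower, beside the 28.8% higher and 27.9% lower of all genes after siPADI2 and 22.6% and 24.3% in the libraries labelled R1810A. GAA, the glycogen-degrading alpha-glucosidase, had 236 and 209 CPM after siPADI2, against 167 and 142 CPM after siCtrl (log2 0.53 ± 0.09, adjusted p = 4.85e-06). In the other poly(A) experiment it had 206 and 222 CPM in the libraries labelled R1810A, against 232 and 232 CPM in the WT libraries (adjusted p = 0.169). The beta-galactosidase GLB1 and the iduronate sulfatase IDS rose in both poly(A) experiments, by log2 values of 0.30 and 0.36 after siPADI2, and of 0.32 and 0.59 in the libraries labelled R1810A. IDS shares 26.8% of its exon length with other genes, so its counts are incomplete.

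SGSH, a heparan sulfatase, was among the genes that fell everywhere. It had 55.4 and 51.9 CPM after siPADI2, against 102 and 83.4 CPM after siCtrl (log2 −0.78, adjusted p = 3.10e-09). It had 59.6 and 54.3 CPM in the libraries labelled R1810A, against 95.4 and 81.3 CPM in the WT libraries (log2 −0.63, adjusted p = 0.000486). Chromatin RNA held 26.6 and 21.3 CPM after siPADI2, against 60.8 and 66.5 CPM after siCtrl (log2 −1.41 ± 0.21, adjusted p = 2.66e-09), and −0.53 with an adjusted p of 0.0463 after the GC correction. The arylsulfatase ARSA was lower in both poly(A) experiments (log2 −0.38 and −0.44). In chromatin RNA ARSA had 8.16 and 6.02 CPM after siPADI2, against 15.2 and 19.7 CPM after siCtrl (log2 −1.30 ± 0.30, adjusted p = 0.000207), which was −0.34 with an adjusted p of 0.435 after the GC correction. The sialidase NEU1 fell in both poly(A) experiments (−0.61 and −0.27), and the alpha-galactosidase GLA (−0.76) and the heparan-degrading NAGLU (−0.22) after siPADI2. NAGLU shares 12.6% of its exon length with another gene, so its counts are incomplete. The glucuronidase GUSB and the hexosaminidase subunit HEXA rose in the libraries labelled R1810A (0.22 and 0.34).

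ARSB, which removes sulfate from dermatan and chondroitin, changed direction between RNA fractions. In poly(A) RNA it had 7.13 and 7.93 CPM after siPADI2, against 12.6 and 13.8 CPM after siCtrl (log2 −0.82 ± 0.11, adjusted p = 8.18e-08). In chromatin RNA it had 29.8 and 28.7 CPM after siPADI2, against 18.8 and 13.2 CPM after siCtrl (log2 0.87 ± 0.23, adjusted p = 0.00106). The chromatin call was lost with DESeq2 (adjusted p = 0.0534) and without the siCtrl library numbered 5 (log2 0.60, adjusted p = 0.123).

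Among the 7 lipid enzymes and their helper proteins, LIPA set the poly(A) experiments apart. LIPA, the acid lipase that releases cholesterol from its esters, had 396 and 431 CPM after siPADI2, against 394 and 427 CPM after siCtrl (log2 0.01, adjusted p = 0.928). It had 285 and 289 CPM in the libraries labelled R1810A, against 134 and 133 CPM in the WT libraries (log2 1.11 ± 0.06, adjusted p = 1.69e-08). The siRNA groups overlapped and the RNAP2 groups did not. Its chromatin RNA came to 69.9 and 66.3 CPM after siPADI2, against 49.0 and 43.9 CPM after siCtrl (log2 0.55, adjusted p = 0.0245), which was 0.06 with an adjusted p of 0.858 after the GC correction and was not called by DESeq2.

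The thioesterase PPT1 had 621 and 580 CPM after siPADI2, against 964 and 1064 CPM after siCtrl (log2 −0.76, adjusted p = 2.09e-09). In the libraries labelled R1810A it did not pass the test (log2 −0.11). Acid ceramidase, ASAH1, was likewise called lower after siPADI2 (−0.57) and did not pass in the libraries labelled R1810A (−0.04). In chromatin RNA PPT1 and ASAH1 did not pass (log2 −0.28 and −0.34), and after the GC correction both were lower (−0.66 and −0.91, adjusted p = 0.0249 and 0.000708). The saposin precursor PSAP fell in both poly(A) experiments (−0.48 and −0.23) and the ganglioside activator GM2A rose in both (0.23 and 0.16). The sphingomyelinase SMPD1 and the cholesterol carrier NPC2 were higher in the libraries labelled R1810A (0.30 and 0.24) and did not pass the test in poly(A) RNA after siPADI2 (−0.11 and 0.19).

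Of the 5 V-ATPase genes tested in poly(A) RNA, 2 fell after siPADI2 by edgeR, where 27.9% of all genes fell, and in the libraries labelled R1810A 3 were higher and 1 lower, where 22.6% and 24.3% of all genes were. ATP6AP1, an accessory subunit needed to assemble the V-ATPase, had 211 and 186 CPM after siPADI2, against 445 and 422 CPM after siCtrl (log2 −1.12 ± 0.09, adjusted p = 3.76e-14). It had 179 and 186 CPM in the libraries labelled R1810A, against 281 and 296 CPM in the WT libraries (log2 −0.66 ± 0.06, adjusted p = 2.54e-06), and in chromatin RNA 22.4 and 22.0 CPM after siPADI2, against 38.7 and 36.2 CPM after siCtrl (log2 −0.76, adjusted p = 0.00312). The chromatin call was lost with DESeq2 (adjusted p = 0.0565) and after the GC correction (log2 −0.25, adjusted p = 0.392). The catalytic subunit ATP6V1A, with ATP6V0D1 and ATP6V1H, did not pass the test after siPADI2, with log2 fold changes of 0.02, −0.11 and −0.07, and was higher in the libraries labelled R1810A, with 0.41, 0.32 and 0.17. ATP6V1B2 was lower after siPADI2 (−0.32).

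ATP6V0D2, the pump subunit that osteoclasts use in place of ATP6V0D1, had 0 and 0.0146 CPM in poly(A) RNA after siPADI2, against 0 and 0.0483 CPM after siCtrl, and was not tested there. In chromatin RNA it had 32.3 and 30.5 CPM after siPADI2, against 21.2 and 21.9 CPM after siCtrl (log2 0.54, adjusted p = 0.0423), a call that was lost with DESeq2 (adjusted p = 0.219) and after the GC correction (log2 0.03, adjusted p = 0.928). Such a contrast between fractions was common: of 5287 coding genes under 0.1 CPM in all 4 siRNA poly(A) libraries, 33.8% had at least 10 CPM in siCtrl chromatin RNA.

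The 3 transcription factors of the family went different ways. MITF, known as the regulator of pigment cell identity, had 3.88 and 4.13 CPM after siPADI2, against 2.35 and 1.99 CPM after siCtrl (log2 0.91 ± 0.16, adjusted p = 4.09e-06). It had 2.90 and 3.18 CPM in the libraries labelled R1810A, against 1.51 and 2.23 CPM in the WT libraries (log2 0.70 ± 0.18, adjusted p = 0.0122), a call that was lost without the first WT library (log2 0.44, adjusted p = 0.0549) and without either library labelled R1810A (adjusted p = 0.0517 and 0.1). Per length it was among the lowest of the list, at 0.555 FPKM after siPADI2, against 0.301 FPKM after siCtrl.

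TFEB, regarded as the main regulator of lysosomal genes, had 5.67 and 6.06 CPM after siPADI2, against 8.64 and 7.72 CPM after siCtrl (log2 −0.47 ± 0.12, adjusted p = 0.00117). It had 5.19 and 5.82 CPM in the libraries labelled R1810A, against 6.00 and 6.13 CPM in the WT libraries, which did not pass the test (log2 −0.14, adjusted p = 0.280). TFE3, the most abundant of the 3, had 116 and 112 CPM after siPADI2, against 99.8 and 95.5 CPM after siCtrl (log2 0.23 ± 0.08, adjusted p = 0.0173). It had 84.2 and 86.3 CPM in the libraries labelled R1810A, against 94.4 and 95.1 CPM in the WT libraries (log2 −0.15, adjusted p = 0.0414), a call that DESeq2 did not make and that was lost when any 1 of the 4 libraries was left out. The TFE3 call after siPADI2 was lost without either siPADI2 library (adjusted p = 0.152 and 0.0576) and without the second siCtrl library (0.0805).

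In chromatin RNA TFEB had 24.1 and 20.5 CPM after siPADI2, against 33.1 and 36.7 CPM after siCtrl (log2 −0.64, adjusted p = 0.0143), which became 0.11 after the GC correction and was not called by DESeq2 (adjusted p = 0.127). TFE3 had 13.1 and 19.1 CPM after siPADI2, against 22.9 and 20.6 CPM after siCtrl, and MITF 19.9 and 19.1 CPM after siPADI2, against 16.2 and 17.1 CPM after siCtrl. Neither passed the test (log2 −0.43 and 0.23), and the GC correction turned both signs (0.45 and −0.29, adjusted p = 0.189 and 0.373).

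Setting the poly(A) experiments side by side, 8 genes were higher in both, namely LAMP2, MCOLN1, CTSC, CTSK, GLB1, IDS, GM2A and MITF. A further 12 were lower in both: CD63, CLN3, CTSB, CTSH, CTSZ, TPP1, NEU1, SGSH, ARSA, ARSB, PSAP and ATP6AP1. TFE3 and CTSA were called in opposite directions. Of the 43 genes tested in both, 22 were called in both, beside 6294 of all 18260 genes tested in both. The share with the same sign among those called in both, 20 of 22 or 90.9%, was that of genes in general, 5737 of 6294 or 91.2%. The pairs of groups share no library. With chromatin RNA added, CTSC was higher and CTSH, CTSZ, SGSH, ARSA and ATP6AP1 were lower in all 3 comparisons, 2.33% and 11.6% of the 43 genes, where 2.14% of the 17114 genes tested in all 3 were higher in each and 5.66% lower. In chromatin RNA DESeq2 did not call CTSH and ATP6AP1 (adjusted p = 0.0838 and 0.0565), and after the GC correction SGSH was the only one of the 6 still called.

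**Figure D3:**
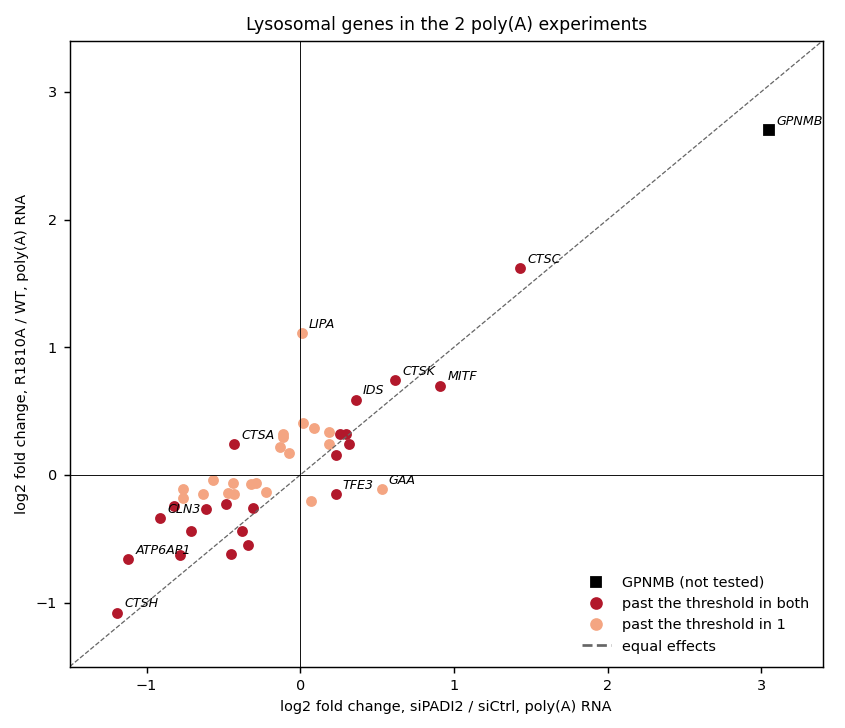
Log2 fold change of each gene after siPADI2 against siCtrl (x axis) and in the libraries labelled R1810A against WT (y axis), both in poly(A) RNA, with the dashed line where the effects are equal. GPNMB lies alone at 3.05 and 2.70, CTSC follows at 1.43 and 1.62, LIPA lies at 0.01 and 1.11, and most other genes lie within 1 of 0 on both axes.

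The size of the effect was then compared directly, as the siPADI2 effect minus the R1810A effect in a joint fit of the 8 poly(A) libraries. Only the RNAP2 libraries had HA-tagged RNAP2 and alpha-amanitin, and PADI2 RNA was low in those labelled R1810A as well as after siPADI2. Siting a difference in the siRNA, the RNAP2 form, the toxin or PADI2 is therefore not possible here. Of the 43 genes, 2 were higher (4.65%) and 19 lower (44.2%), where 11.8% of all 19884 genes tested were higher and 14.3% lower. LIPA differed most, by −1.12 ± 0.10 on the log2 scale (adjusted p = 1.96e-06), followed by CTSA (−0.70, adjusted p = 0.000198) and PPT1 (−0.67, adjusted p = 0.000574). GAA and TFE3 were the genes that stood higher after siPADI2, by 0.62 (adjusted p = 0.00165) and 0.35 (adjusted p = 0.0075). For CTSC the difference was −0.22 ± 0.11 and for MITF 0.18 ± 0.25, and neither passed the edgeR test (adjusted p = 0.169 and 0.645). Without 1 library the lower genes were as few as 10 (without the second library labelled R1810A), 11 (without the first WT library) and 12 (without the second siPADI2 library). With total counts as the scale the calls were 5 higher and 10 lower, and over all genes 3870 higher and 1822 lower in place of 2343 and 2853.

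In chromatin RNA the effect of siPADI2 on a gene moved with its GC content. Over all genes tested, the median log2 fold change was 0.45 for genes with a GC content below 40% and −1.04 for genes of 60% or more. The 13 lysosomal genes called lower had a median GC content of 60.1% (range 53.3 to 66.0%), and the 4 called higher a median of 42.6% (range 38.2 to 48.0%). In poly(A) RNA after siPADI2 the same medians over all genes were 0.14 and −0.02. Once the trend was fitted out, the chromatin calls were 3 higher and 4 lower of the 44 genes. Over all 33879 genes tested they were then 2010 higher and 3928 lower. The median log2 fold change of the 44 genes was 0.02, beside −0.08 over all genes. ARSB remained higher (log2 0.67, adjusted p = 0.0248) and SGSH lower, whereas CTSC, LIPA, ARSA, CTSZ and TFEB no longer passed. The other 5 genes called with the correction, CLN3 and MCOLN1 (higher) and SCARB2, ASAH1 and PPT1 (lower), had not passed without it.

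**Figure D4:**
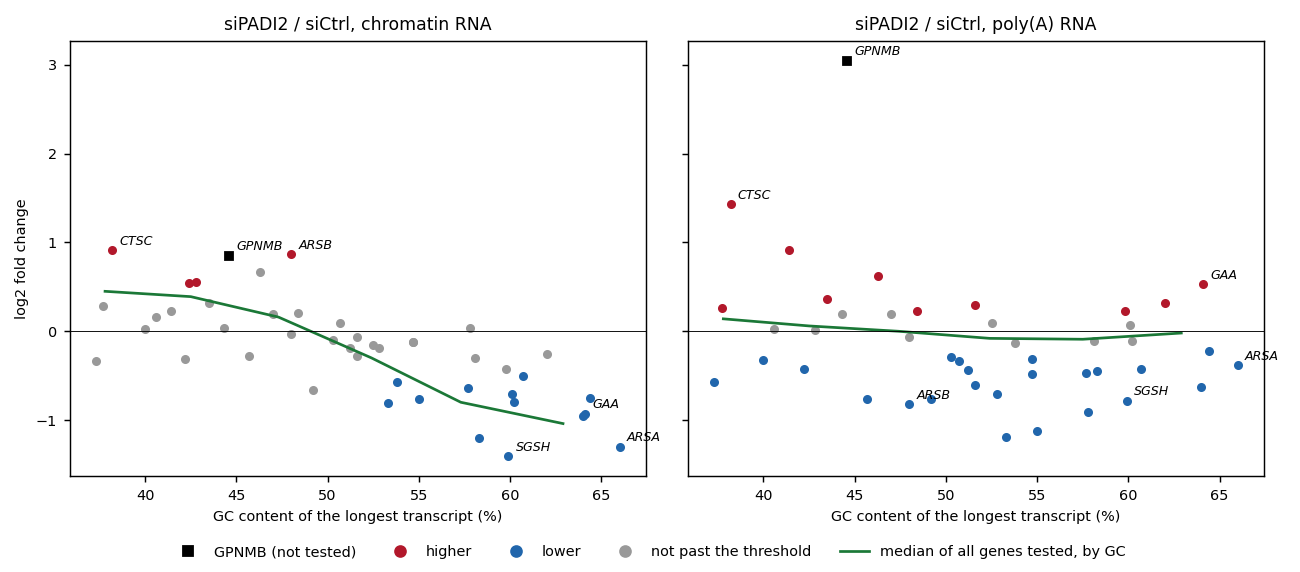
Log2 fold change of each gene after siPADI2 against siCtrl plotted by the GC content of its longest transcript, in chromatin RNA (left) and in poly(A) RNA (right), with the median of all genes tested in 6 classes of GC content as a green line. In chromatin RNA the line runs between 0.45 and −1.04 and the lysosomal genes scatter on both sides of it, lower on the whole at high GC content. In poly(A) RNA the line stays near 0 and GPNMB and CTSC lie far above it.

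The effects of siPADI2 in chromatin and poly(A) RNA were also tested against each other, as chromatin minus poly(A) in a joint fit. Of the 44 genes 1 was higher and 1 lower (2.27% each), where 1.71% of all 44615 genes tested were higher and 6.34% lower. ARSB differed by 1.49 ± 0.39 (adjusted p = 0.00383) and GAA by −1.68 ± 0.38 (adjusted p = 0.00051). GAA had 53.2 and 39.7 CPM in chromatin RNA after siPADI2, against 81.1 and 96.4 CPM after siCtrl, while its poly(A) RNA was higher. The GAA difference was −0.71 with an adjusted p of 0.33 after the GC correction. These counts varied with the libraries used, and so did the median over all genes. That median was −0.16 with all libraries and −0.44 without the second siCtrl poly(A) library. DESeq2 called 10 of the 44 genes higher and 2 lower, with a median over all genes of 0.38. Over all 44615 genes it called 2693 higher and 2558 lower, in place of 763 and 2829 with edgeR.

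Further lysosomal genes outside the 45 were also called in both directions. After siPADI2 in poly(A) RNA, where 28.8% of all genes were higher and 27.9% lower, 5 of 23 other hydrolases were higher and 14 lower, with falls of the phospholipase-like PLBD2 (log2 −1.53) and the fucosidase FUCA1 (−1.21). Of 19 other membrane proteins 3 were higher and 10 lower, led by LITAF (−2.17) and LAMP3 (−1.12). Of 16 other V-ATPase subunits 4 were higher and 7 lower, and the tissue-restricted subunits ATP6V1C2 and ATP6V0A4 rose most (2.22 and 1.75). Of 15 genes that deliver enzymes to lysosomes, 3 were higher and 7 lower, among them IGF2R, the mannose 6-phosphate receptor (0.77), and GNPTAB, which makes the mannose 6-phosphate tag (−1.18). Of 19 genes of nutrient sensing at the lysosome 4 were higher and 5 lower, with ZKSCAN3, a repressor of lysosomal genes, lower (−1.17) and FLCN, which restrains TFEB and TFE3, higher (0.55).

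In the libraries labelled R1810A, where 22.6% of all genes were higher and 24.3% lower, the other hydrolases were 4 higher and 11 lower of 23, with PLBD2 (−0.89) and CTSV (−0.72) lowest, and the membrane proteins 6 higher and 3 lower of 19, again with LITAF (−1.39) and LAMP3 (−0.78). The V-ATPase subunits were 4 higher and 5 lower of 16, with ATP6V1C2 at 0.80 and ATP6V0A2 at −0.71. The delivery genes were 4 higher and 4 lower of 15, with GNPTAB at −0.78 and IGF2R at 0.76, and the nutrient-sensing genes 6 higher and 3 lower of 19, with ZKSCAN3 at −0.59 and MTOR at −0.54. In chromatin RNA, with 12.2% of all genes higher and 20.1% lower, 2 of 23 other hydrolases were higher and 5 lower, and 2 of 20 membrane proteins higher and 8 lower. Of 16 V-ATPase subunits 4 were lower there by edgeR, where DESeq2 called 0 and 1 was lower at an unadjusted p under 0.05 by DESeq2. ATP6V1C2, higher in both poly(A) experiments, was among these 4 (log2 −0.94, adjusted p = 0.0353 by edgeR). Its chromatin minus poly(A) difference for siPADI2 was −3.34, and that of ATP6V0A4 was −2.17 (adjusted p = 6.12e-10 and 0.000286 by edgeR). Of 15 delivery genes and of 19 nutrient-sensing genes 3 each were lower by edgeR.

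Cells in which GPNMB is known to be high were looked for by their markers. Of 11 macrophage and osteoclast markers, 5 were at 0 in the siPADI2 poly(A) libraries, CSF1R, CD163 and TYROBP among them. In the siCtrl libraries 5 were at 0, with AIF1 in place of CSF1R, which had 0.576 and 0.45 CPM there. The summed level of the 11 markers was 3.77 to 4.23 CPM after siPADI2, against 12.2 to 12.6 CPM after siCtrl, nearly all of it CALCR. It was 3.63 to 3.72 CPM in the libraries labelled R1810A, against 1.19 to 1.33 CPM in the WT libraries. CSF1R (log2 −8.71, with 0 counts after siPADI2) and CALCR (−1.64) were called lower after siPADI2. CALCR was called higher in the libraries labelled R1810A (1.76). In chromatin RNA 10 of the 11 markers exceeded 1 CPM, both after siPADI2 and after siCtrl. That is a low bar, since the 5287 coding genes under 0.1 CPM in all 4 siRNA poly(A) libraries had a median of 6.01 CPM in siCtrl chromatin RNA. Of 8 pigment cell targets of MITF, 2 exceeded 1 CPM in each poly(A) group, and TYR was at 0 in every poly(A) library. Their sum was 18.3 to 19.4 CPM after siPADI2, against 29.9 to 35.4 CPM after siCtrl, and 42.4 to 43.5 CPM in the libraries labelled R1810A, against 33.3 to 34.8 CPM in the WT libraries, most of it TYRP1. TYRP1, a melanosome enzyme, thus went down with siPADI2 (log2 −0.87) and up in the libraries labelled R1810A (0.52), while GPNMB was higher in both. PMEL, the only other pigment cell target tested in poly(A) RNA, was lower in both (log2 −0.47 and −0.45, adjusted p = 0.00408 and 0.00134 by edgeR). The sum of the 8 luminal markers was 4767 to 5185 CPM after siPADI2, against 8676 to 9725 CPM after siCtrl. It was 4952 to 5636 CPM in the libraries labelled R1810A, against 8635 to 9119 CPM in the WT libraries. In each poly(A) experiment 1 of the 8 was called higher and 6 lower. Of all genes, 28.8% and 27.9% were so called after siPADI2, and 22.6% and 24.3% in the libraries labelled R1810A. KRT19 and PGR changed most after siPADI2 (log2 −1.76 and −1.66). KRT19 and ESR1 did so in the libraries labelled R1810A (−1.19 and −1.17). The sums, and the part of this in the results above, were not tested.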

How the data were processed

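The authors deposited raw counts of read pairs for each gene. Trimmomatic and STAR came before counting, per the submitters' processing notes. Counting used featureCounts 1.5.1 for poly(A) and 1.4.6-p2 for chromatin RNA, with strand option 2 and GENCODE 19 genes on hg19, per the file headers. No option for reads that map to several places or overlap several genes was set, and only exons were counted, per the file headers. Per the labels' protocols, stranded TruSeq kits were used, with poly(A) selection for mRNA and Ribo-Zero depletion for chromatin RNA. The gene lengths deposited by the authors are exonic bases.

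Symbols were matched by identifier to GENCODE 29 (52338 of 57820 genes, and all 45 named here), whose transcripts gave GC content. Promoters are RefSeq entries on GRCh38.p14, and gene coordinates are the deposited hg19 ones. Counts were scaled with TMM to CPM, and FPKM is CPM per kilobase of exon. Fits used the 4 libraries of a comparison, or 8 for differences between effects, with edgeR 4.0.16 in R 4.3.3 (filterByExpr, robust quasi-likelihood F test, Benjamini-Hochberg adjustment over all genes tested, threshold 0.05). Alternatives were DESeq2 1.42.0, total counts as scale, no filter or at least 50 counts, a GC correction, a replicate block, a joint fit and leaving out each library. The fit was tested on simulated data with the same spread set for all genes. Of genes changed there by a log2 of 1, 98% were recovered for siPADI2 in poly(A) RNA, 91% for R1810A and 75% for chromatin RNA. The siPADI2 minus R1810A difference recovered 73%, and chromatin minus poly(A) 55%. The groups come from the sample titles.

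The genes and lists were chosen with earlier results of these data known. Full statistics were given to GPNMB (values only), to the 3 largest rises and falls past the threshold per comparison or difference, and to the 3 transcription factors. They were also given to the 3 genes called in both poly(A) experiments with the largest smaller change. In the poly(A) experiments each wider list was given its 2 largest changes, where as many passed the threshold. For chromatin RNA and the differences, the largest changes of these lists were mostly not named. Values of other genes were given by role.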

Additional observations from a re-analysis of the deposited data

Results flagged for a closer look

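ARSB and GAA answered siPADI2 differently in chromatin and poly(A) RNA, by a test of the difference itself (edgeR, chromatin minus poly(A), adjusted over all genes tested). The difference was 1.49 for ARSB, whose log2 fold change was 0.87 in chromatin and −0.82 in poly(A) RNA, with an adjusted p of 0.00383, and 1.4 with an adjusted p of 0.0636 without the first siPADI2 poly(A) library. It was −1.68 for GAA, whose log2 fold change was −0.93 in chromatin and 0.53 in poly(A) RNA, with an adjusted p of 0.00051, and −0.71 with an adjusted p of 0.33 after the GC correction. GAA has a GC content of 64.1% and ARSB of 48.0%. The chromatin libraries held far fewer counts, and the fractions were prepared with different kits, so fraction and kit cannot be told apart.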

How the results depend on the processing

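The counts of called genes and medians moved as follows, and the cause was not tested. With total counts as the scale, siPADI2 against siCtrl in poly(A) RNA had 16 higher genes and a median of −0.11. In the libraries labelled R1810A 9 were lower. In chromatin RNA 7 were lower with a median of −0.08. The siPADI2 minus R1810A difference had 5 higher and 10 lower, and chromatin minus poly(A) 2 higher and 6 lower. After the GC correction the siPADI2 poly(A) median was −0.18, the chromatin comparison had 4 lower and a median of 0.02, with the signs of TFEB (0.11), TFE3 (0.45) and MITF (−0.29) turned, the siPADI2 minus R1810A difference had 4 higher, and chromatin minus poly(A) 2 higher and 2 lower. DESeq2 gave 1 higher and 5 lower in chromatin RNA, and 10 higher and 2 lower for chromatin minus poly(A), where its median over all genes was 0.38 in place of −0.16. With no filter the chromatin comparison had 2 higher and a median of −0.26. With the stricter filter that median was −0.03, and chromatin minus poly(A) had 5 higher and 5 lower. A joint fit of 8 libraries gave 2 higher and 5 lower in chromatin RNA.

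Leaving out 1 library at a time gave, after siPADI2 in poly(A) RNA, 6 to 9 higher (6 without the first siPADI2 library) and medians of −0.34 to −0.21. For the libraries labelled R1810A it gave 9 to 18 higher (9 without the first WT library) and medians of −0.14 to −0.00. In chromatin RNA it gave 1 to 3 higher, 6 to 12 lower and medians of −0.30 to −0.14. The siPADI2 minus R1810A difference gave 10 to 18 lower, with 12 without the second siPADI2 library, 10 without the second library labelled R1810A and 11 without the first WT library. Chromatin minus poly(A) gave 0 to 4 higher and 1 to 13 lower, with 13 without the second siCtrl poly(A) library. The 0 came without the first siPADI2 poly(A) library by edgeR, where 4 of the 44 genes had an unadjusted p under 0.05 in either direction.

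Same-numbered poly(A) libraries deviated together, with a correlation of 0.24 in the siRNA experiment and 0.742 in the RNAP2 experiment, but with 2 pairs each they share only a number. The replicate block gave 12 higher and 23 lower after siPADI2, 18 and 20 in the libraries labelled R1810A, and 3 and 24 for their difference. No paired analysis was possible for chromatin RNA because its groups share 1 replicate number. Beyond these, 99 counts and medians stayed within 1.5 times or 1 SD, and of the values of single genes 335 kept their direction and side of the threshold, 35 lost the call and 3 changed sign. With 2720080 to 7040541 counts a library, chromatin RNA had a median SE of 0.214 per gene on the log2 scale, which limits the changes that could be detected there.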
